A study of Rattus norvegicus with 12 samples.

Results

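Mug1 and other inhibitors of proteases that circulate in plasma were followed across the pancreas of 4 groups of rats. The set was a list of 7 gene symbols, Mug1, Mug2, A2m, Serpina1, Serpina3n, Serpini2 and Serping1, and its members were the probe sets that the platform annotation gives to 1 of these symbols alone. Of the 7 genes, 6 had such a probe set, 1 each, out of 15866 probe sets and 10411 genes on the array. Mug2 had no probe set of its own. The list was chosen by the level of Mug1, which differed between the healthy treated and healthy untreated animals in these same arrays. Its values in these groups, and those of a second murinoglobulin probe set, are therefore a description, and only DT vs. DU was tested for them. The other members were named for their kinship or function.

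The 4 groups, all of male Wistar rats, were diabetic treated (DT), diabetic untreated (DU), healthy treated (HT) and healthy untreated (HU) animals. Both diabetic groups had received streptozotocin (STZ), a toxin of beta cells. DT and HT animals then drank sodium tungstate, an agent that lowers glycemia in diabetic rats. By the sample labels the dose was 0.7 g/L for the initial week and 2 g/L for 4 to 5 weeks more. The labels also name near normal glycemia as the end point in DT animals. The paper instead describes a single concentration and only a partial restoration of glycemia. DU and HU animals were kept without tungstate for 5 to 6 weeks. Each group had 3 arrays, and each array (named DT1, DT2 and so on) held total RNA of whole pancreas pooled from 3 rats, so the p-values measure the spread between pools and not between rats. Values are log2 intensities of the arrays, with array medians of 6.63 to 6.70. The arrays came from 6 scan days and 3 chip lots. No scan day held both DU and HU arrays, and lot 3 held only DT3, DU3 and HT3. The 16 acinar cell genes measured averaged near the top of the scale, at 13.35 to 13.51 in DT, 12.97 to 13.12 in DU, 13.27 to 13.44 in HT and 13.34 to 13.38 in HU arrays. Among them Amy2a3, an amylase gene, averaged 7.94 in DU and 13.12 in HU arrays, while the median of the 16 was -0.013 in DU vs. HU. The 6 beta cell genes summed to 3484 to 8674 in DT and 2374 to 3170 in DU arrays, against 24408 to 28249 in HT and 24855 to 27101 in HU arrays (summed linear intensity). In whole tissue, fewer cells of a type and less RNA per cell cannot be told apart.

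Macroglobulins and serpins stop proteases by different means. A macroglobulin such as the products of A2m, Mug1 and Mug2 offers a bait region and traps the protease that cuts it, and the complex is taken up by the receptor Lrp1. A serpin is cut in its reactive loop and stays bound to the enzyme. Most members are known as liver products of the plasma. In the rat, A2m is an acute phase protein that rises in inflammation, whereas the Mug1 product, also called alpha-1-inhibitor 3, falls. Serpini2, or pancpin, is a serpin of the acinar cell.

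In the rat genome (GRCr8), A2m, Mug1l1, Mug1, Mug2 and Cpamd8 follow each other on chromosome 4 in this order, with no other protein-coding gene between them in the RefSeq annotation. The gene starts of the 3 murinoglobulin genes are shown to place the copies beside each other. Transcripts and probe sequences were not compared. Each line gives 250 bases before and 50 after the annotated start, 5′ to 3′ (RefSeq, GRCr8, plus strand), at chr4:156748145-156748444 for Mug1, chr4:156835905-156836204 for Mug2 and chr4:156652123-156652422 for Mug1l1. Capitals mark AGAACA, a half-site of the glucocorticoid receptor, and TGTTTAC, a forkhead core.
Mug1: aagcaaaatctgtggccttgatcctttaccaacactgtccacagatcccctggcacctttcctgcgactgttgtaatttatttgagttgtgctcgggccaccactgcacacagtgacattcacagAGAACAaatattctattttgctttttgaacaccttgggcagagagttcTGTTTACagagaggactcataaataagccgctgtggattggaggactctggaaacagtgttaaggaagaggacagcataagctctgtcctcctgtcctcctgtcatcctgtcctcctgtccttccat
Mug2: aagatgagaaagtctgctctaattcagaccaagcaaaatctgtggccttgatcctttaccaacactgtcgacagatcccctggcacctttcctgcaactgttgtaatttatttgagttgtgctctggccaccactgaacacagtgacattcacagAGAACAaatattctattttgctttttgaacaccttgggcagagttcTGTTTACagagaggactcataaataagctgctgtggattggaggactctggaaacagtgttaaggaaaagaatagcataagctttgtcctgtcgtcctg
Mug1l1: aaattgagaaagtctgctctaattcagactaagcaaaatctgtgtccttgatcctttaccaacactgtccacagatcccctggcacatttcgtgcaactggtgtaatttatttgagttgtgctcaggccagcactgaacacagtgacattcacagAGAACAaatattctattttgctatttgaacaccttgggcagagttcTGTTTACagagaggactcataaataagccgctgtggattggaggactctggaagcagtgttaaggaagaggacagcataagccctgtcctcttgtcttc
In pairwise alignment, 260 of 270 aligned bases were identical between Mug1 and Mug2 (96.3%), 259 of 270 between Mug1 and Mug1l1 (95.9%), and 278 of 300 between Mug2 and Mug1l1 (92.7%). AGAACA began at position -125 of Mug1 and at -95 of Mug2 and Mug1l1, and TGTTTAC at -77 of Mug1 and -49 of both other genes. On either strand, AGAACA is in 20.7% and TGTTTAC in 3.78% of the 33469 rat promoter windows of this length. TTCNNNGAA, the motif of STAT factors, is in 8.87% of them and was in the Serpina3n window but in none of the 3 murinoglobulin windows, and TATAAA (14.2%) was in that of Serpini2 alone among the members. Windows were given for Mug1, Mug2, Serpina1, Serpina3n and Serpini2, 5 of the 7 genes. Such matches describe the letters only.

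Mug1 (probe set 1388229_a_at) was the member with the widest spread, and its level was highest in the healthy untreated pancreas. Even there it lay only between the 24.6 and 50.8 percentile of an array. Its log2 level was 3.96, 4.16 and 4.08 in DT arrays, 3.98, 4.14 and 4.28 in DU arrays, 4.57, 4.70 and 4.34 in HT arrays, and 6.39, 5.62 and 6.68 in HU arrays. Every HU array lay above all 9 others, and every HT array above the 6 diabetic arrays. The difference from HU was -2.16 in DT (4.48-fold lower), -2.09 in DU (4.27-fold lower) and -1.69 in HT (3.23-fold lower) on the log2 scale. Of all probe sets, 0.158% were over 2-fold lower than HU in DT, 0.29% in DU and 0.0252% in HT, and 11.4%, 16.9% and 5.83% had all arrays below those of HU. For DT against HT the share with all arrays below was 8.48%. Nothing is read from these shares, since Mug1 was chosen by its healthy groups. Mug1 had the 2nd lowest of the 15866 differences between HT and HU. With tungstate in diabetic animals the level was about the same: DT vs. DU gave a log2 fold change of -0.068 (standard error 0.20, 95% interval -0.50 to 0.37, adjusted p = 0.961 in limma). The diabetic values lie under the 10th percentile of their arrays, which was 4.66 to 4.72 there, and the HT values lie near it, so this probe set left little room to measure a further fall and the folds above may understate the difference.

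The probe set 1370027_a_at is annotated to Mug1, Cpamd8 and Mug1l1 together and is not a member by the rule, but its transcript accession is that of Mug1 in RefSeq. It was brighter, with 6.23, 6.06 and 6.11 in DT, 6.09, 5.92 and 6.04 in DU, 7.76, 7.95 and 7.38 in HT, and 9.24, 8.52 and 9.62 in HU arrays. The diabetic values lay between the 31.7 and 39.9 percentile of their arrays. Where the background of this probe set lies was not tested. Here the groups formed 3 steps that did not overlap, the diabetic arrays lowest, HT between and HU highest. The difference from HU was -3.00 in DT (7.97-fold lower), -3.11 in DU (8.64-fold lower) and -1.43 in HT (2.70-fold lower), and DT differed from HT by -1.56 (2.96-fold lower). DT vs. DU differed by 0.12 (95% interval -0.34 to 0.58, adjusted p = 0.933). Over the 12 arrays this probe set and that of Mug1 followed each other with a Pearson r of 0.935 (Spearman rho 0.783), and with 0.888 after the group means were taken out. HU2 was the lowest of the HU arrays on both. Both probe sets may bind transcripts of several murinoglobulin copies, so the signal cannot be given to Mug1 rather than to Mug1l1 or Mug2.

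**Figure D1:**
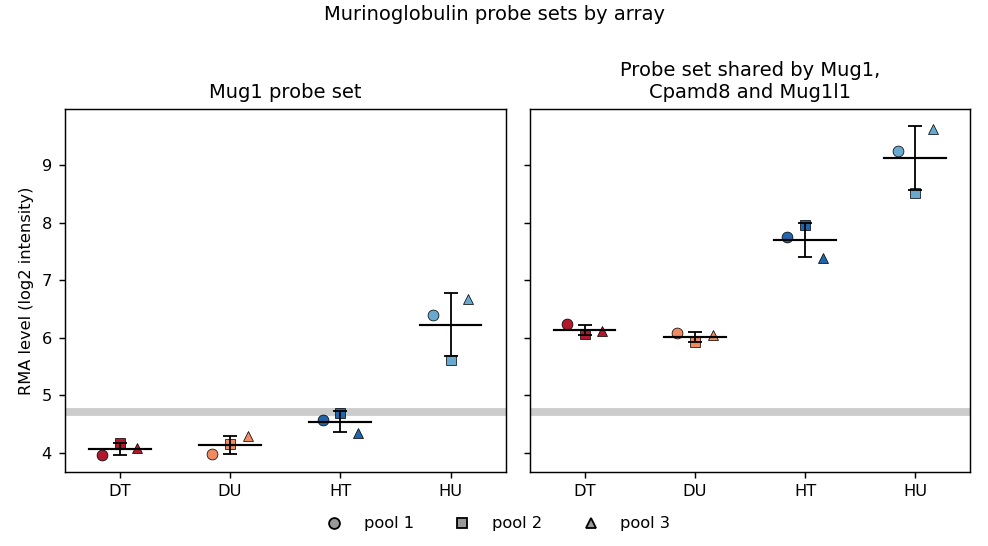
RMA level (log2 intensity) of the Mug1 probe set and of the probe set shared by Mug1, Cpamd8 and Mug1l1, for the 3 pools of each group (points), with the mean and SD (line and bars). The grey band is the range of the 10th percentiles of the 12 arrays, 4.66 to 4.75. HU arrays lie above all others on both probe sets, and DT and DU arrays overlap.

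Differences within a batch that held both groups are also a description, since the healthy groups chose Mug1. On scan day 3, HT1 and HT2 minus HU3 was -2.05 for Mug1 and -1.77 for the shared probe set, and in chip lot 2 HT1 and HT2 minus HU1 and HU2 was -1.37 and -1.03. In chip lot 1, DU1 and DU2 minus HU3 was -2.62 for Mug1 and -3.62 for the shared probe set. In lot 3, DT3 minus HT3 was -0.26 and -1.27. These arrays shared scan day and lot, whereas in the other comparisons the groups also differed in lot or scan day. Those of scan day 3 and lot 1 rest on HU3, the highest HU array on both probe sets.

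Other cell types were read beside these values. The 9 hepatocyte genes, all measured, summed to 1239 to 1343 in DT and 1202 to 1246 in DU arrays, against 1423 to 1476 in HT and 1401 to 1530 in HU arrays (summed linear intensity). Of the 9, 1 was called, lower than HU in DU and in DT animals, against 1.73% and 0.561% of all probe sets called lower. That gene was Apob, the protein of very low density lipoprotein, which averaged 8.66 in DT and 8.40 in DU arrays, against 9.07 in HT and 9.17 in HU arrays. Alb, the liver's albumin, averaged 7.01 in DT, 6.95 in DU, 6.92 in HT and 7.01 in HU arrays, and the mean log2 level of the 9 genes overlapped between the groups, with 6.74 to 6.95 in DT, 6.83 to 6.85 in DU, 6.89 to 7.05 in HT and 6.91 to 6.94 in HU arrays. Of 6 genes of red cells and blood, 3 were measured, and they summed to 1625 to 2678 in DT and 1658 to 2140 in DU arrays, against 2802 to 3891 in HT and 2982 to 5294 in HU arrays. Among these Hbb, a beta globin and much the brightest, averaged 10.39 in DT, 10.37 in DU, 11.46 in HT and 11.56 in HU arrays and was called lower in DU than in HU (-1.19 on the log2 scale, adjusted p = 0.0364). Alas2, the first enzyme of red cell haem synthesis, averaged 7.55 in DT, 7.58 in DU, 7.94 in HT and 7.97 in HU arrays, and Slc4a1, the band 3 anion exchanger, 8.76 in DT, 8.62 in DU, 8.62 in HT and 8.59 in HU arrays. Of 9 duct cell genes, 7 were measured, with sums of 10880 to 11827 in DT and 3319 to 3775 in DU arrays, against 13325 to 14991 in HT and 13541 to 14579 in HU arrays, so that here DT and DU stood apart where Mug1 did not. The linear sums of the hepatocyte, red cell, duct and beta cell genes were lower in all diabetic than in all healthy arrays, as Mug1 was. For the first 3 lists this was largely through Apob, Hbb and Tff2. Of the 7 duct genes only Tff2 was called in DU vs. HU, with means of 13.01 in DT, 8.05 in DU, 13.41 in HT and 13.41 in HU arrays. The median log2 fold change of the 7 there was 0.0015, so the duct list as a whole did not fall with Mug1. The sums of HT and HU overlapped where Mug1 did not. The part of these cell types in the Mug1 values was not tested.

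By Pearson r over the 12 arrays, among 664 probe sets of 1 symbol with a range of at least 1 on the log2 scale, the genes most like Mug1 were Lrpap1 (r = 0.858), Nnat (0.850) and Tmed8 (0.833). Within groups these values were 0.445, 0.586 and 0.617, so much of the likeness is the step between the groups that they share. Lrpap1, the chaperone of Lrp1, averaged 6.03 ± 0.04 in DT, 5.85 ± 0.15 in DU, 6.33 ± 0.11 in HT and 6.66 ± 0.24 in HU arrays (SD, n = 3 pools). Nnat, which encodes the membrane protein neuronatin, averaged 6.86 ± 0.07 in DT, 6.49 ± 0.05 in DU, 7.11 ± 0.30 in HT and 7.56 ± 0.26 in HU arrays.

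A2m (1367794_at), the acute phase macroglobulin next to the Mug genes on chromosome 4, was dim in every group, between the 13.3 and 25.1 percentile of an array. Its log2 level was 5.04, 5.64 and 5.55 in DT, 5.38, 5.40 and 5.43 in DU, 5.10, 5.25 and 5.30 in HT, and 5.06, 4.97 and 5.04 in HU arrays. The DU arrays lay close together and above all HU arrays, whereas DT1 lay apart from DT2 and DT3, among the HU values. The HT arrays too lay above all HU arrays, with a difference of 0.19 that was not tested, so this was not a trait of diabetic arrays alone. The mean was 0.38 higher in DU than in HU (1.30-fold, standard error 0.13, 95% interval 0.11 to 0.65) and 0.39 higher in DT than in HU (1.31-fold, interval 0.12 to 0.66), with adjusted p of 0.116 and 0.150, so neither passed. Of all probe sets, 12.5% had all DU arrays above those of HU. Without DT1 both passed, with adjusted p of 0.0208 and 0.0141, and DU vs. HU passed with the 6 arrays of these groups alone (0.0218). In DT vs. DU the difference was 0.0081 (interval -0.26 to 0.28, adjusted p = 0.995).

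In DT vs. DU, 1 of 6 members passed an adjusted p of 0.05 in limma, against 1.12% of all probe sets, and 0.46% of all were called lower. The 5 members other than Mug1 were tested in all comparisons, and 0 passed in DU vs. HU (3.2% of all probe sets), DT vs. HT (0.933%) or DT vs. HU (1.32%). At an unadjusted p under 0.05 these counts were 3, 1 and 2 of 5, against 20.2%, 12.7% and 16.6% of all probe sets, and a B-statistic above 0 gave 0 in each.

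The gene called was Serping1 (1372254_at), which encodes the C1 inhibitor, the serpin that blocks C1r and C1s of complement, plasma kallikrein and factor XII, and which fibroblasts and macrophages also make. Its log2 level was 8.03, 7.70 and 8.59 in DT arrays, 9.10, 8.84 and 9.16 in DU arrays, 8.35, 8.28 and 8.23 in HT arrays, and 8.41, 8.09 and 8.73 in HU arrays. The 3 DU arrays lay above all 9 others. Of all probe sets, 6.28% had all DT arrays below those of DU. Treated diabetic animals had 1.90-fold less Serping1 signal than DU animals (log2 fold change -0.92, standard error 0.19, 95% interval -1.34 to -0.51, adjusted p = 0.0350 in limma). The mean was 0.62 higher in DU than in HU (1.54-fold, standard error 0.19, interval 0.21 to 1.04), which did not pass (adjusted p = 0.0976). DT and HU differed by -0.30 (interval -0.72 to 0.12, adjusted p = 0.455), and DT and HT by -0.18 (interval -0.60 to 0.24, adjusted p = 0.753). HT and HU overlapped, with a difference of -0.12. DU vs. HU and DT vs. DU share the DU arrays, so their opposite signs are not independent, here or for the genes below.

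The Serping1 call in DT vs. DU was close to the threshold. It was lost when DT1 (adjusted p = 0.123), DT2 (0.123), DU1 (0.147), DU2 (0.0580), DU3 (0.123), HT1 (0.0589), HT2 (0.0615), HT3 (0.0526) or HU1 (0.0611) was left out, and with the 6 DT and DU arrays alone (0.145). It held without DT3 (-1.16, adjusted p = 0.00248). DT1 and DT2 minus DU1 was -1.23 on scan day 1, and DT3 minus DU3 was -0.58 in chip lot 3.

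**Figure D2:**
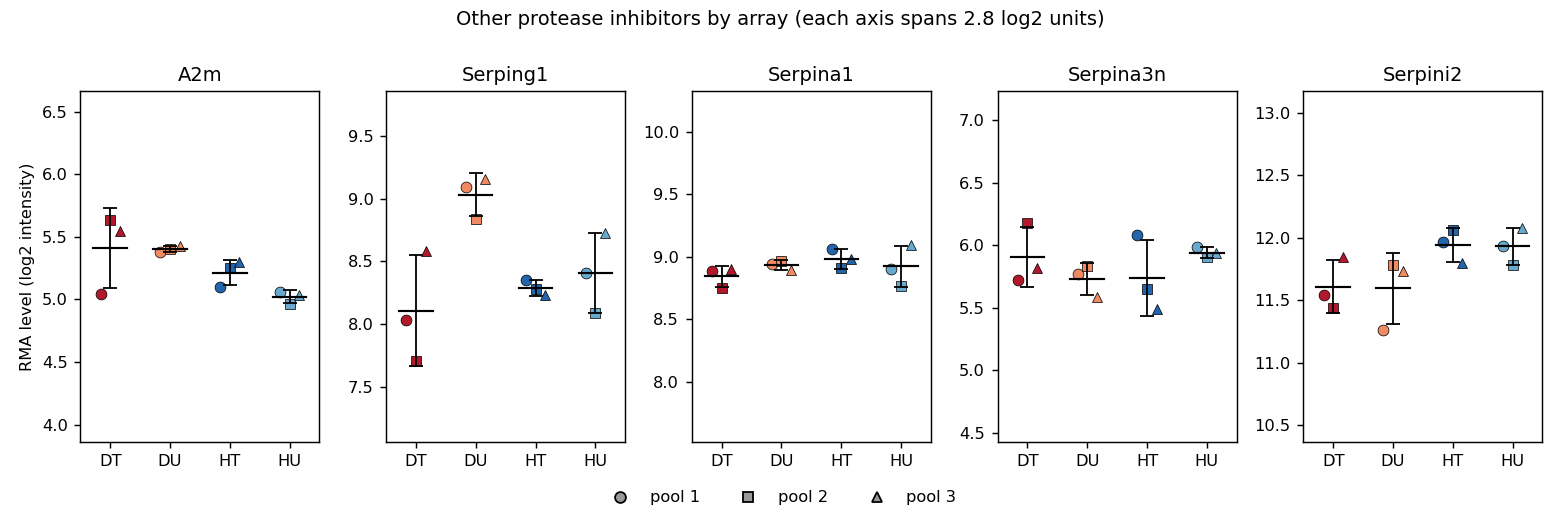
RMA level (log2 intensity) of A2m, Serping1, Serpina1, Serpina3n and Serpini2 in the 3 pools of each group (points), with the mean and SD (line and bars). All panels span the same number of log2 units around their own mean. The DU arrays stand above the others for Serping1 (8.84 to 9.16), and Serpina1 stays between 8.75 and 9.10 on all 12 arrays.

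The 2 complement proteases that the C1 inhibitor blocks were looked at next, and were chosen after their values were seen. C1s was 7.55, 7.26 and 8.24 in DT, 9.07, 8.93 and 7.68 in DU, 7.37, 7.47 and 7.21 in HT, and 7.46, 7.02 and 7.96 in HU arrays. DU1 and DU2 were the highest, but DU3 lay below DT3 and HU3. The C1s difference in DT vs. DU was -0.88 (standard error 0.33, interval -1.60 to -0.16, adjusted p = 0.375), and in DU vs. HU it was 1.08 (interval 0.36 to 1.80, adjusted p = 0.0975). C1r differed by -0.26 in DT vs. DU (adjusted p = 0.544) and by 0.36 in DU vs. HU (adjusted p = 0.141). With scan day in the model, which sets DT1 and DT2 against DU1 alone, both passed in DT vs. DU, C1s at -1.67 (adjusted p = 0.00366) and C1r at -0.64 (adjusted p = 0.0338). Without the 3 arrays of chip lot 3, a choice made after seeing the data, C1s differed by -1.60 in DT vs. DU (adjusted p = 0.00648) and by 1.52 in DU vs. HU (adjusted p = 0.00386).

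**Figure D3:**
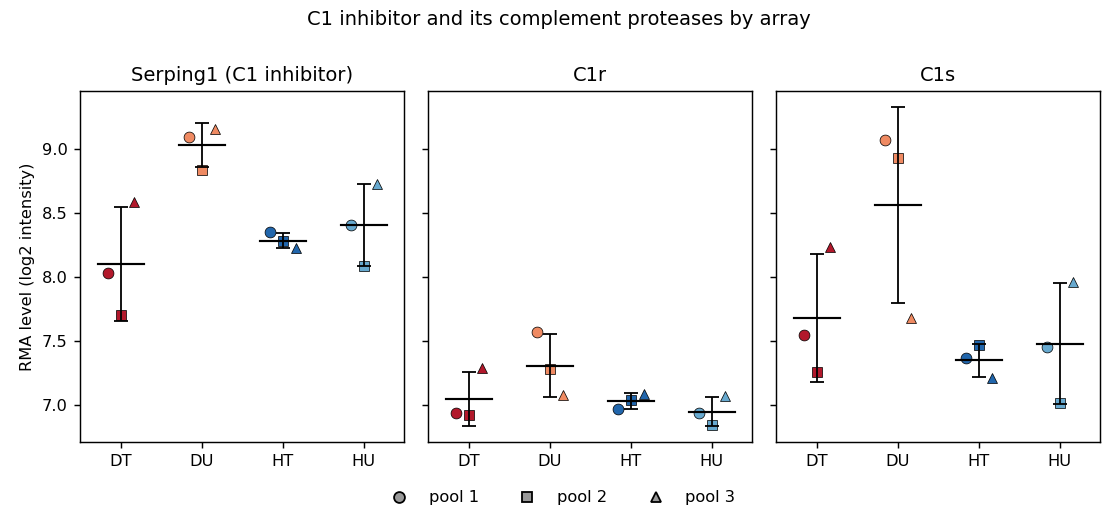
RMA level (log2 intensity) of Serping1 and of C1r and C1s in the 3 pools of each group (points), with the mean and SD (line and bars). DU1 and DU2 are the highest arrays for C1s (9.07 and 8.93), while DU3 (7.68) is among the other groups there but not for Serping1 (9.16).

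Of 28 complement and contact system genes, 16 were measured. In DU vs. HU, 1 rose, C3, the central complement component (0.40 on the log2 scale, adjusted p = 0.0318), and none fell. Of all probe sets, 1.47% were called higher and 1.73% lower there. The median of the 16 was 0.15 in DU vs. HU, against -0.022 over all probe sets. For DT vs. DU it was -0.15, against 0.0045, and none was called there. With scan day in the model 4 were called there, all lower (C1qa, C1qc, C1r and C1s, against 1.26% of all probe sets in that fit), and with chip lot in the model 1. The C3 call in DU vs. HU was lost without DU1, DU2, HU1, HU2 or HU3 (count 0). Without chip lot 3, 4 were called in each comparison (against 4.22% of all probe sets for DU vs. HU, while it was 1.69% for DT vs. DU), all higher in DU than in HU (C1qc, C1r, C1s and C3) and all lower in DT than in DU (C1qa, C1qc, C1s and C3).

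Markers of stellate cells, fibroblasts and leukocytes moved with Serping1 on some arrays. The 10 stellate cell and fibroblast genes, all measured, averaged 7.19, 7.35 and 7.94 in DT arrays and 8.04, 7.93 and 7.75 in DU arrays. Of these, 9 of 10 were lower in DT than in DU, with none called and a median log2 fold change of -0.40, against 0.0045 over all probe sets. In DT vs. HU 2 were called lower, Col3a1 (-1.43, adjusted p = 0.0188) and Col1a2 (-0.96, adjusted p = 0.0385), against 0.561% of all probe sets. The sums of the 10 genes were 1795 to 3164 in DT, 2649 to 3469 in DU, 2529 to 3205 in HT and 2791 to 3967 in HU arrays. The 9 of 13 leukocyte genes measured averaged 6.64, 6.87 and 7.33 in DT and 7.31, 7.21 and 6.93 in DU arrays, and their sums were 1646 to 4128 in DT, 2761 to 4268 in DU, 2948 to 4352 in HT and 2353 to 5087 in HU arrays. Of the leukocyte genes, 8 of 9 were lower in DT than in DU, with none called and a median of only -0.093. DT1 and DT2 were the lowest arrays of both lists. Their part in the lower Serping1 of DT animals was not tested. The DU arrays, highest for Serping1, were not the highest for either list.

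**Figure D4:**
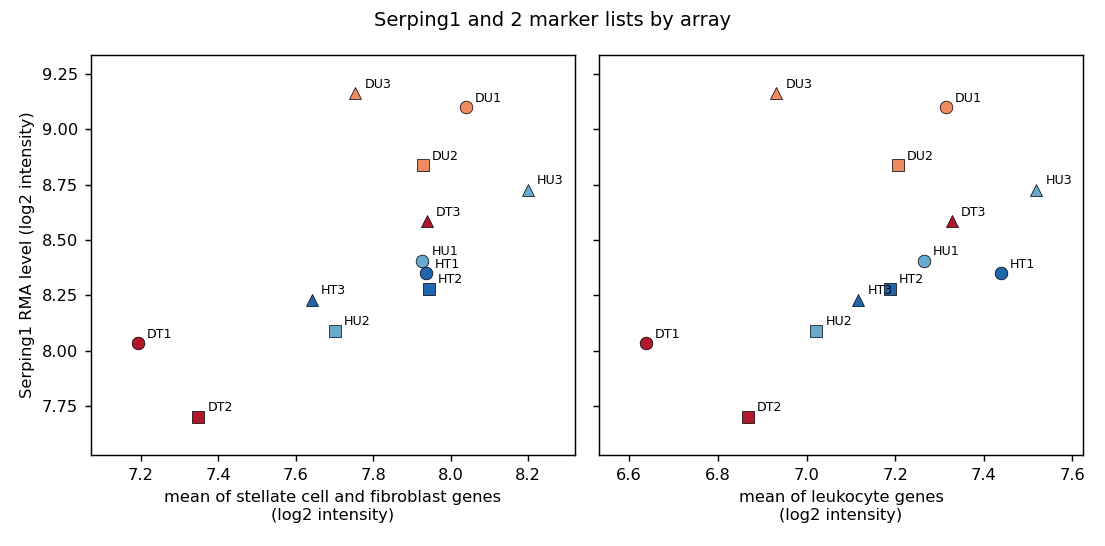
Serping1 level (log2 intensity, vertical) against the mean level of 10 stellate cell and fibroblast genes (left) and of 9 leukocyte genes (right) on each of the 12 arrays, named beside the points. DT1 and DT2 are low on both axes, and the 3 DU arrays lie above the rest at marker levels that the other groups share.

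The genes most like Serping1 over the 12 arrays were Ptp4a3 (r = 0.948), a phosphatase, Coq8a (0.912), which takes part in coenzyme Q synthesis, and Sin3b (0.910), a corepressor of transcription. Within groups these were 0.862, 0.745 and 0.793. Ptp4a3 averaged 7.33 ± 0.34 in DT, 8.14 ± 0.15 in DU, 7.61 ± 0.08 in HT and 7.65 ± 0.23 in HU arrays, and Coq8a 6.66 ± 0.38 in DT, 7.73 ± 0.15 in DU, 6.97 ± 0.09 in HT and 6.90 ± 0.02 in HU arrays (SD, n = 3 pools).

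Serpini2 (1369748_at), the acinar cell serpin, was the brightest member, above the 99.0 percentile of every array. Its log2 level was 11.54, 11.43 and 11.85 in DT, 11.26, 11.78 and 11.74 in DU, 11.97, 12.06 and 11.79 in HT, and 11.93, 11.78 and 12.07 in HU arrays. The diabetic arrays tended to the low side but overlapped with the healthy ones. The differences were -0.34 in DU vs. HU (interval -0.65 to -0.025), -0.33 in DT vs. HT (-0.64 to -0.023) and -0.32 in DT vs. HU (-0.63 to -0.011), with adjusted p of 0.213, 0.349 and 0.285. DT vs. DU gave 0.014 (interval -0.30 to 0.33, adjusted p = 0.992).

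Serpina1 (1367647_at), or alpha-1-antitrypsin, the inhibitor of neutrophil elastase, varied least of the members. Its level was 8.88, 8.75 and 8.90 in DT, 8.94, 8.97 and 8.89 in DU, 9.06, 8.91 and 8.98 in HT, and 8.90, 8.77 and 9.10 in HU arrays. The range over the arrays was 0.35, against a median range of 0.48 over all probe sets and 2.72 for Mug1. The differences in the 4 tested comparisons lay between -0.14 (DT vs. HT) and 0.014 (DU vs. HU), with all intervals between -0.34 and 0.21.

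Serpina3n (1368224_at), an acute phase serpin of the antichymotrypsin family, was dim, with 5.72, 6.18 and 5.82 in DT, 5.77, 5.84 and 5.59 in DU, 6.08, 5.65 and 5.49 in HT, and 5.99, 5.90 and 5.93 in HU arrays. DU arrays lay below HU arrays, as did those of 16.9% of all probe sets, with a difference of -0.21 (interval -0.52 to 0.10, adjusted p = 0.452). Tungstate-treated arrays scattered most, and DT vs. DU gave 0.17 (interval -0.14 to 0.49, adjusted p = 0.799). The family has several closely related genes in rodents, so this signal too may be shared.

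**Figure D5:**
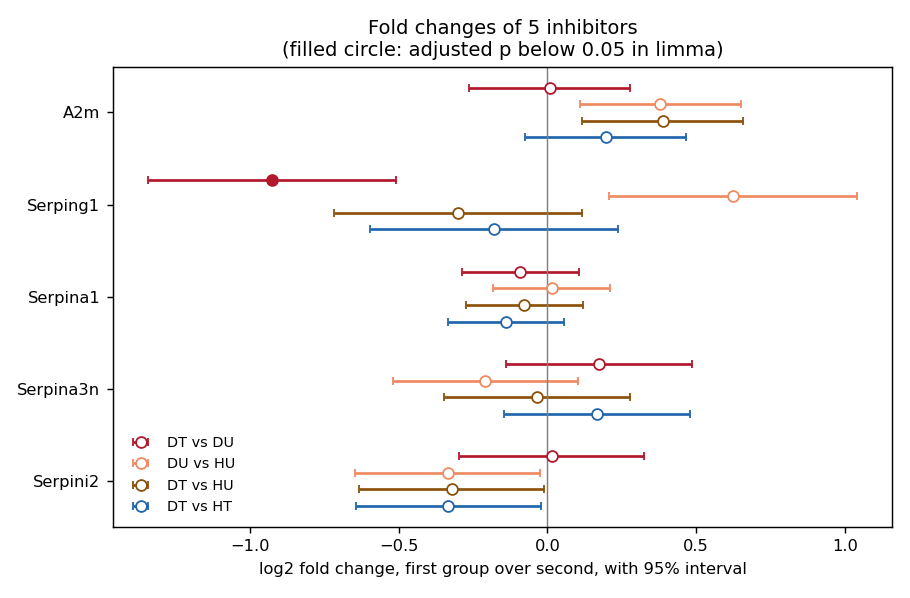
Log2 fold change (horizontal, first group over second) of A2m, Serping1, Serpina1, Serpina3n and Serpini2 in 4 comparisons, with 95% intervals from limma. Only Serping1 in DT vs. DU is filled, at -0.92 (adjusted p = 0.0350). Of the open circles, those of A2m and Serpini2 for DU and for DT against HU, Serpini2 in DT vs. HT and Serping1 in DU vs. HU have intervals that leave out 0, but none of these passed after adjustment.

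Of 64 other protease inhibitors, 42 were measured. Among all probe sets 1.47% were called higher and 1.73% lower in DU vs. HU. These shares were 0.655% and 0.46% for DT vs. DU, and 0.756% and 0.561% for DT vs. HU. Of the 42, none rose in DU vs. HU and 3 fell, namely Serpini1 or neuroserpin (-1.02 on the log2 scale, adjusted p = 0.00113), the metalloproteinase inhibitor Timp2 (-0.92, adjusted p = 0.0157) and Serpina10, the protein Z-dependent inhibitor (-0.65, adjusted p = 0.0318). In DT vs. DU Serpini1 rose (0.64, adjusted p = 0.0467), and Pebp1, which also inhibits Raf-1 kinase (-0.67, adjusted p = 0.00150), and Timp3 (-0.40, adjusted p = 0.0465) fell. Serpini1 thus averaged 9.20 ± 0.20 in DT, 8.56 ± 0.16 in DU and 9.57 ± 0.25 in HU arrays. Itih4, an inter-alpha-trypsin inhibitor chain, fell in DT vs. HU (-0.55, adjusted p = 0.0456), and none was called in DT vs. HT. With 1 array left out, 1 to 4 were called in DU vs. HU (1 without DU2), 1 to 3 in DT vs. DU (1 without DT1, DU1, DU2, DU3, HT1, HT2, HU1 or HU2) and 0 to 2 in DT vs. HU (0 without DT2, DU2, DU3, HT2, HU1, HU2 or HU3). The median of the list was 0.015 in DU vs. HU, against -0.022 over all probe sets, and -0.044 for DT vs. DU, against 0.0045.

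On the protease side, 33 of 43 target enzymes of the inhibitors were measured. In DU vs. HU 2 rose, the anionic trypsinogen gene Prss2 (0.45, adjusted p = 0.0318), which has near-identical copies, and St14 or matriptase (0.47, adjusted p = 0.0318), and none fell. Of all probe sets, 1.47% were called higher and 1.73% lower there, and 0.756% higher in DT vs. HU. Prss2 also rose in DT vs. HU (0.54, adjusted p = 0.0233), and none was called in DT vs. DU or DT vs. HT. With scan day in the model, 3 were called in DT vs. DU, against 1.26% of all probe sets in that fit. C1r and C1s, which are also in the complement list, were lower and F2, or prothrombin, higher. With 1 array left out, 0 to 3 were called in DU vs. HU (0 without DU1, DU2 or HU1) and 0 to 2 in DT vs. HU (0 without DT1, HU1 or HU3). Of 8 receptors and partners that clear inhibitor complexes, 7 were measured and only Lrpap1 was called, lower than HU in DU (-0.81, adjusted p = 0.00155) and in DT animals (-0.63, adjusted p = 0.0204, lost without DT1 or HU3).

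Liver-made plasma proteins did not move as a block. Of 29, 26 were measured. In DU vs. HU, Cp or ceruloplasmin (0.73, adjusted p = 0.00248) and C3 rose and Apob fell (-0.77, adjusted p = 0.000324), Cp fell in DT vs. DU (-0.52, adjusted p = 0.0406), and Apob fell in DT vs. HU (-0.52, adjusted p = 0.0148). Of all probe sets, 1.47% were called higher and 1.73% lower in DU vs. HU. Called lower were 0.46% in DT vs. DU and 0.561% in DT vs. HU. Of 30 acute phase and interleukin 6 response genes, 28 were measured. Cp and C3, which are in both of these lists, rose in DU vs. HU. C3 is in the complement list as well, so these are the same calls. Cp and Lcn2, the iron-binding lipocalin of acute inflammation (-0.49, adjusted p = 0.0370), fell in DT vs. DU. Cp averaged 6.74 ± 0.24 in DT, 7.26 ± 0.04 in DU and 6.53 ± 0.05 in HU arrays. With 1 array left out, 0 to 2 acute phase genes were called in DT vs. DU (0 without DT1, DU1, DU2, HU1, HU2 or HU3), and with the 6 arrays alone 0. The Cp call of the plasma protein list in DT vs. DU was lost also without DT2 or HT2, and the Apob call in DT vs. HU without HU2 or HU3. With scan day in the model, none of the genes of the 6 lists was called in DU vs. HU, against 0.214% of all probe sets in that fit. No scan day held both groups, so that fit cannot decide these calls.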

How the data were processed

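Total RNA of whole rat pancreas was hybridized to 12 Affymetrix RAE230-A arrays, 3 pools of 3 rats for each of 4 groups. The authors adjusted the background, quantile normalized and summarized the arrays by RMA (affy package, version not given in the sources used here), and the deposited values are log2 intensities. RMA draws the arrays towards 1 common distribution and flattens differences of dim probe sets. Scan day and chip lot, the batches known, came from the deposited records of the arrays.

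Of 15923 probe sets, 57 controls were left out. A mean per group was fitted to the other 15866 with limma 3.58.1 in R 4.3.3, and p-values of its moderated test were adjusted over all of them (Benjamini-Hochberg, per contrast). A probe set was called at an adjusted p under 0.05. HT vs. HU was only described. Genes were named from 12783 probe sets with 1 symbol, not from 312 with several or 2771 with none, and a list gene entered by its brightest probe set. Named genes are all members, the 3 probe sets most like Mug1 and Serping1 by Pearson r, and up to 4 called genes per comparison from each of 6 lists. These are the lists of inhibitors, target enzymes, clearance receptors, plasma proteins, acute phase genes and complement genes. Called genes of the cell type lists were named only in part. Alb, Apob, the red cell genes, Tff2, Amy2a3, Col3a1, Col1a2, C1qa, C1qc, C1r, C1s and F2 were named outside this rule, after their values were seen. The members and lists were chosen with earlier results of these data known. The fit was tested on simulated arrays. Promoters are RefSeq windows, aligned with Biopython 1.88. Precision is limited by the number of arrays. Alternatives were quantile normalization, median centring, a filter on dim probe sets, the 6 arrays compared, trend and robust variance, a B-statistic above 0, 3 blocks and leaving out each array.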

Additional observations from a re-analysis of the deposited data

Results flagged for a closer look

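The probe set shared by Mug1, Cpamd8 and Mug1l1 differed between the diabetic and the healthy animals in how tungstate went with it: every array of HT lay below every array of HU (difference of means -1.43 on the log2 scale), whereas DT and DU arrays overlapped with a difference of 0.12. The difference between these effects was not tested, and the HT vs. HU contrast is the one by which Mug1 was chosen.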

How the results depend on the processing

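With only the 6 arrays compared, 0 members were called in DT vs. DU and 1 (A2m) in DU vs. HU, and with the replicate block 1 (Serping1, adjusted p = 0.0354) in DU vs. HU. When each array was left out in turn, 0 to 1 members were called in DT vs. DU and in each of the contrasts of DU and DT with HU. The replicate numbers did not pair the arrays (r of same-numbered deviations -0.29 to 0.31, 5 of 18 above 0.1), and the replicate block changed no other member's call. With scan day blocked the Mug1 difference of HT and HU was -2.05, which is again HT1 and HT2 minus HU3. With 1 array left out it was -1.998 to -1.47. The filter on dim probe sets leaves out Mug1 and A2m, which have no value there.

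Directions turned only in differences that were not called. With scan day blocked, A2m in DT vs. DU was -0.036, Mug1 in DT vs. DU 0.078, Serpina1 in DU vs. HU -0.059, Serpina3n 0.26 in DT vs. HU and 0.082 in DU vs. HU, Serping1 in DT vs. HT 0.36 and Serpini2 in DT vs. HT 0.051. With the chip lot as a block, Serpina1 in DU vs. HU was -0.072 and Serpina3n in DT vs. HU 0.092. Without chip lot 3, which was chosen after seeing the data, A2m in DT vs. DU was -0.050, Serpini2 in DT vs. DU -0.034 and Serpina3n in DT vs. HU 0.0082, and with quantile normalization Serpini2 in DT vs. DU was -0.065. With 1 array left out, the ranges that crossed 0 were -0.11 to 0.19 for A2m, -0.15 to 0.0050 for Mug1 and -0.15 to 0.11 for Serpini2 in DT vs. DU, -0.16 to 0.0087 for Serpina1 and -0.17 to 0.059 for Serpina3n in DT vs. HU, -0.064 to 0.10 for Serpina1 in DU vs. HU, and -0.42 to 0.022 for Serping1 in DT vs. HT. The cause was not tested.

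Over all probe sets, calls numbered 507 for DU vs. HU, 177 for DT vs. DU, 148 for DT vs. HT and 209 for DT vs. HU. With the 6 arrays compared, DT vs. DU had 88, DT vs. HT 32 and DT vs. HU 45. With scan day blocked DU vs. HU had 34, DT vs. HT 25 and DT vs. HU 3, and with the chip lot 236, 52 and 74. A B-statistic above 0 gave 288 in DU vs. HU. Without chip lot 3 there were 268 in DT vs. DU, 247 in DT vs. HT and 436 in DT vs. HU. With 1 array left out, counts were 214 to 654 in DU vs. HU (lowest without DU1), 104 to 224 in DT vs. DU (lowest without DU1), 51 to 286 in DT vs. HT (lowest without DT1) and 73 to 306 in DT vs. HU (lowest without HU1). Array signal near the low end limits Mug1 in DT and DU arrays.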
